A study of Rattus norvegicus with 10 samples.

Results

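Trimethylation of lysine 9 of histone H3 (H3K9me3) was mapped by chromatin immunoprecipitation with sequencing in RCS cells, an established line from a rat chondrosarcoma. Isolated H3K9me3 peaks were taken as those with no other H3K9me3 peak within 12.5 kb on either side and no base shared with a peak of H3K27ac or H3K4me1. Of 52431 deposited H3K9me3 peaks, 12714 (24.2%) stood more than 12.5 kb from the next, and 11662 of these (91.7%) also carried neither mark. These 11662 peaks, called isolated peaks below, were 22.2% of the list and covered 8.77 Mb of the 45.1 Mb under H3K9me3. They were chosen by their positions in the H3K9me3, H3K27ac and H3K4me1 lists, so their spacing, their widths, their scores and their distances to these marks are given as descriptions.

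The 10 libraries came from 6 immunoprecipitations, of the transcription factors SOX6 and SOX9 and of H3K9me3, H3K4me3, H3K4me1 and H3K27ac, and from 4 inputs made without an antibody. The labels give RCS cells for all of them and name no genotype, treatment or time point. One input, of 38604970 reads, served the 3 methylation marks together, and 16352477 of its reads aligned without a mismatch. Each antibody has 1 library, so no value has a replicate error, and the Wilson and Poisson 95% intervals cover counting error only. Neighbouring peaks are not independent, which makes these intervals too narrow. The read depth of the immunoprecipitated libraries is unknown, and the cells were not checked against marker genes, since an annotation of the files' build, rn5, was not used here.

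H3K9me3 is laid down by histone methyltransferases such as SETDB1 and SUV39H1 and is read by HP1 proteins. It is known for long heterochromatin domains at repeats near centromeres and at gene families such as zinc-finger genes, and also for short sites at silenced transposable elements. H3K27ac is found at regulatory sites in use, H3K4me1 mostly at enhancers and H3K4me3 mostly at promoters. SOX9 directs chondrocyte differentiation, and SOX6 acts with it in cartilage.

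Isolated peaks were short and mostly low in score. Their width had a median of 651 bp (quartiles 549 and 835 bp) and ran from 213 to 4845 bp. The authors' score, of a scale not given by any source used, had a median of 74.3 (quartiles 59.5 and 112) in a list whose lowest value was 50.03. Scores under 100 made up 69.6% of isolated peaks, and 43 peaks (0.369%) reached 1000. Width and score rose together, with a rank correlation of 0.67 across the 11662 peaks, which come from a single library.

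Grouped peaks without the marks were the closest comparison. They numbered 34188, had another H3K9me3 peak within 12.5 kb and shared no base with H3K27ac or H3K4me1. Their median width was 706 bp and their median score 91.5. On every one of the 20 autosomes the median width and the median score were lower for isolated than for grouped peaks. Among isolated peaks the medians by autosome stayed between 628 and 672 bp in width and between 70.05 and 80.6 in score. The fraction of peaks 2000 bp or wider was 1.25% in isolated and 3.48% in grouped peaks. Since the same list set the classes, these are descriptions without a test.

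**Figure D1:**
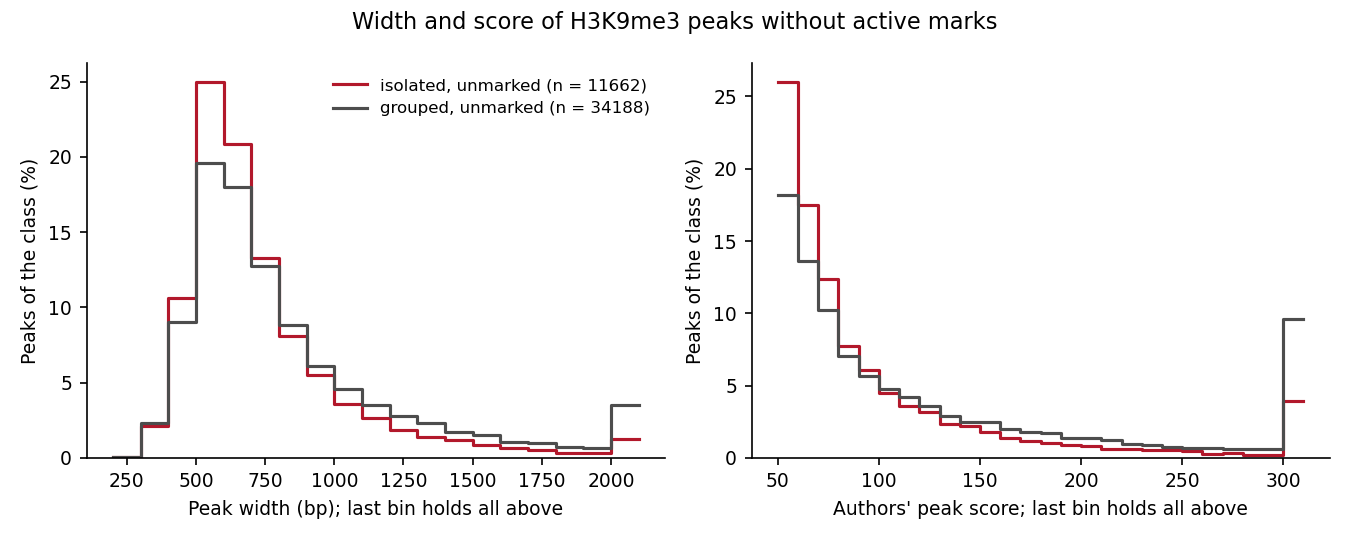
Share of peaks (%) by width in bp (left, bins of 100 bp) and by the authors' score (right, bins of 10) for isolated peaks and for grouped peaks without H3K27ac or H3K4me1. Isolated peaks are shifted to the left in both panels, with medians of 651 against 706 bp and 74.3 against 91.5.

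The 5 highest-scoring isolated peaks shared the value 3100. They were chr4:233280351-233283312, chr4:239399460-239402134, chr5:13728709-13732372, chr14:4886154-4887161 and chr18:48245195-48248382 (rn5, counted from 1). Their widths ran from 1008 bp on chromosome 14 to 3664 bp on chromosome 5. The nearest H3K27ac peak was 11.3 kb away for the second peak on chromosome 4 and 75.8 kb away on chromosome 18. Both peaks on chromosome 4, at 19.4 and 11.3 kb, were nearer to H3K27ac than the median isolated peak, at 31.8 kb. The peak on chromosome 18 had a weak H3K4me1 peak, with a score of 52.8, at 2.98 kb.

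The 5 widest isolated peaks were none of these. They were chr8:98226129-98230973 (4845 bp), chr3:146488879-146493227 (4349 bp), chr16:34814588-34818929 (4342 bp), chr9:38166861-38170839 (3979 bp) and chr14:34338788-34342667 (3880 bp). Their scores were between 918 and 1799. Their surroundings differed. The peak on chromosome 9 had a H3K4me1 peak at 0.37 kb and that on chromosome 3 at 0.79 kb, whereas the peak on chromosome 16 was 375 kb from H3K4me1 and 700 kb from H3K27ac.

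Spacing varied widely among isolated peaks. The distance to the next H3K9me3 peak had a median of 37.7 kb (quartiles 21.3 and 77.3 kb), and it exceeded 100 kb for 2187 peaks (18.8%). The next H3K9me3 peak was itself single, with or without an active mark, for 63.5% of isolated peaks, it belonged to a group of 2 to 4 for 30.6%, and to a group of 5 or more for 5.95%. Both neighbours were single for 42.3%. These values come from the spacing by which the peaks were chosen. The limit of 12.5 kb cut through a continuous range of distances. The 367 peaks just inside it, with the next peak 12.5 to 13.5 kb away, had a median width of 655 bp and a median score of 75.9. The 472 unmarked peaks just outside, at 11.5 to 12.5 kb, had 680 bp and 77.3.

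The longest stretch around an isolated peak was on chromosome 15. The peak chr15:80945317-80945980 had no other H3K9me3 peak for 6.60 Mb before and 6.14 Mb after it. That stretch of 12.7 Mb held 25 H3K27ac, 31 H3K4me1, 15 H3K4me3, 11 SOX9 and 12 SOX6 peaks, so it was not devoid of other signal. The next were a pair of neighbours on chromosome X, chrX:87483031-87483543 and chrX:90045697-90046150, at 2.56 Mb from each other.

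The distance from isolated peaks to active chromatin ranged widely. The median distance to the nearest H3K4me1 peak was 17.3 kb (quartiles 5.06 and 59.8 kb), and to the nearest H3K27ac peak 31.8 kb (9.34 and 103 kb). Within 10 kb, 38.4% of isolated peaks had H3K4me1 (Wilson interval 37.5% to 39.3%) and 26.2% had H3K27ac (25.4% to 27.02%). Grouped unmarked peaks were close to this, with 37.8% (37.3% to 38.3%) and 27.1% (26.7% to 27.6%). Within 1 kb the shares of isolated peaks were 5.63% and 2.87%.

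H3K4me3 and the SOX factors, which the choice of peaks did not use, were farther off. The median distance was 48.1 kb to H3K4me3 (quartiles 16.3 and 135 kb), 62.5 kb to SOX6 (21.3 and 169.8 kb) and 76.6 kb to SOX9 (25.8 and 197 kb). The distances thus followed the lengths of the lists, which held 92421 peaks for H3K4me1, 50834 for H3K27ac, 23116 for H3K4me3, 19355 for SOX6 and 14782 for SOX9. H3K4me1 supplied the nearest of all 5 lists' peaks for 59.5% of isolated peaks, and it made up 46.1% of the peaks in those lists. H3K27ac supplied it for 15.2% and made up 25.4%. No peak of any of the 5 lists lay within 100 kb for 1339 isolated peaks (11.5%), compared with 16.2% of grouped unmarked peaks and 9.48% when each group was represented by its highest-scoring unmarked peak.

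**Figure D2:**
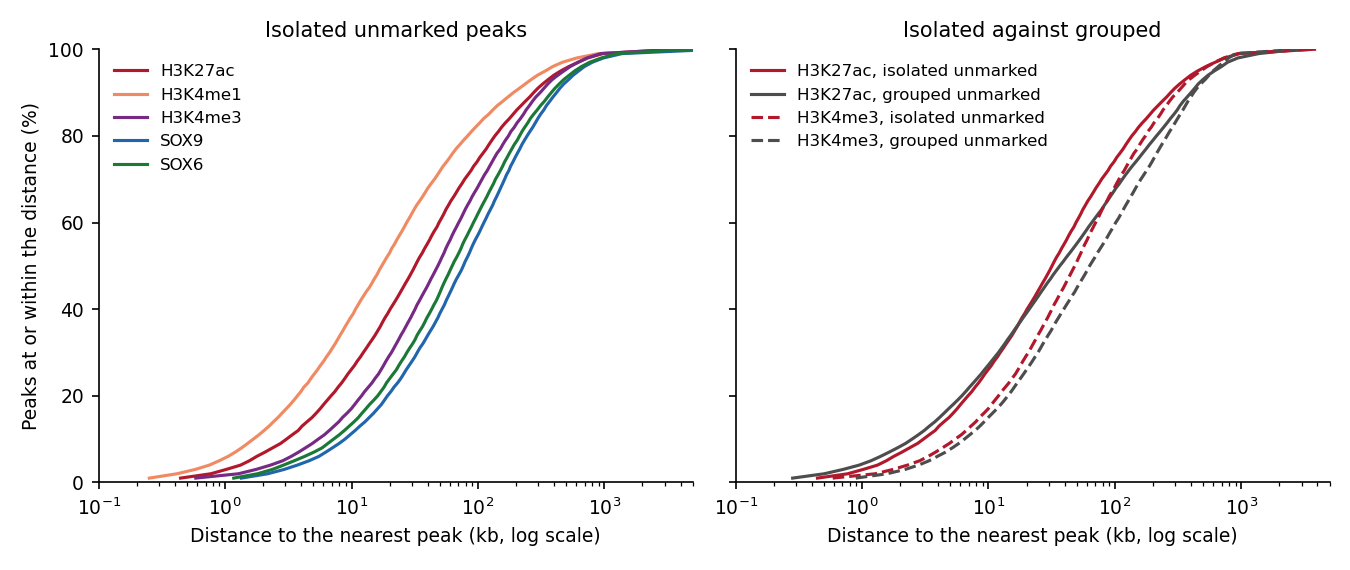
Percentage of peaks whose nearest peak of another list lies at or within a distance (kb, log scale), for isolated peaks against 5 lists (left) and for isolated and grouped unmarked peaks against H3K27ac and H3K4me3 (right). H3K4me1 is nearest, with a median of 17.3 kb, and SOX9 farthest, with 76.6 kb, and the isolated and grouped curves for H3K27ac cross.

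Isolation did not come with a uniform shift in the distance to active marks. Over all peaks the median distance to H3K27ac was 31.8 kb for isolated and 36.7 kb for grouped peaks, and that to H3K4me3 was 48.1 and 63.1 kb. By autosome, however, the median distance to H3K27ac was longer for isolated peaks on 13 of 20, and that to H3K4me1 on 14. Chromosome 12, where H3K9me3 peaks are densest, had a median of 22.0 kb for its isolated and 229 kb for its grouped peaks. When each group was represented by its highest-scoring unmarked peak (8767 peaks), the medians were 22.7 kb to H3K27ac and 42.0 kb to H3K4me3, both shorter than for isolated peaks. These peaks were also higher in score and wider, with medians of 148 and 890 bp, so the effects of counting a group once and of taking its highest-scoring peak cannot be told apart.

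Higher-scoring isolated peaks lay somewhat nearer to active marks. In the lowest quintile by score the median distance to H3K27ac was 39.8 kb (interval of the median 36.5 to 43.9 kb), and in the highest quintile 24.98 kb (23.4 to 27.1 kb). For H3K4me1 the medians were 22.6 kb (20.5 to 25.1 kb) and 13.6 kb (12.3 to 14.8 kb). The relation was weak, with a rank correlation of -0.09 between score and distance to H3K27ac across isolated peaks. This correlation was below 0 on 19 of the 20 autosomes. It was not particular to isolated peaks, since grouped unmarked peaks gave -0.06. Median width of isolated peaks rose over the same quintiles from 551 to 1092 bp.

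Promoter-type methylation was rare at isolated peaks, as it was at all H3K9me3 peaks without H3K27ac or H3K4me1. H3K4me3 shared at least 1 bp with 46 of them, or 0.394% (Wilson interval 0.296% to 0.526%), where all H3K9me3 peaks gave 1.72% and all H3K9me3 peaks without H3K27ac or H3K4me1 gave 0.257%. The removal of peaks with H3K27ac and H3K4me1 by itself lowers the first of these, since those marks accompany H3K4me3. Among the 1052 peaks that were as far from other H3K9me3 peaks but carried H3K27ac or H3K4me1, 212 (20.2%) overlapped H3K4me3. Grouped peaks without the marks gave 72 overlaps, or 0.211% (0.167% to 0.265%). The difference of 0.184 percentage points between isolated and grouped unmarked peaks had a Newcombe 95% interval of 0.0712 to 0.322.

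That difference did not hold under all settings. It was 0.0751 points (-0.0977 to 0.239) with 1 peak per group, 0.0793 (-0.0159 to 0.201) without peaks within 1000 bp of an active mark, 0.0795 (-0.0701 to 0.258) between H3K9me3 peaks above the median score, and 0.0660 (-0.0274 to 0.183) when overlap meant 0.5 of the narrower interval. By autosome the share was higher for isolated peaks on 10 and lower on 9. The interval held 0 in each of these 4 settings.

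The H3K4me3 peaks at isolated H3K9me3 peaks were mostly of low rank in their own list. They were 46 distinct peaks on 16 chromosomes, with a median score of 278 against 1674 over the H3K4me3 list and a median width of 1047.5 bp against 1509 bp. Only 11 of the 46 scored above the median of the list, and 10 (21.7%) had the value 3100, against 42.5% of the list. Although the H3K9me3 interval met no H3K27ac peak, the H3K4me3 peak on it met one in 15 of the 46 cases and an H3K4me1 peak in 9. The same number, 15, of these isolated peaks had H3K27ac within 1 kb. Of all H3K4me3 peaks, 7.73% on the autosomes and 19.6% on chromosome X met neither mark, so most met at least 1. Isolated peaks were chosen to lack these marks, which by itself lowers the counts among the 46. None of the 46 overlapped SOX9 or SOX6. Since only 0.420% of all isolated peaks did, a count of 0 among 46 says little.

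The 5 highest-scoring isolated peaks with H3K4me3 differed in their surroundings. The first, chr13:70614741-70615333, scored 299.8 in the H3K9me3 list and met an H3K4me3 peak with a score of 98.5. It was remote, with the next H3K9me3 peak at 750.2 kb and H3K27ac at 525 kb. The second, chr2:71000587-71002832, met an H3K4me3 peak with a score of 3100 and a width of 2664 bp. H3K27ac began 0.229 kb from it and a SOX6 peak lay at 0.476 kb, so it stood at the edge of an active site. The others, chr13:58552405-58553661, chr16:69739331-69740590 and chr7:62894143-62895349, met H3K4me3 peaks with scores of 114, 68.6 and 70.5.

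Chromosome X stood apart in this overlap. It held 294 isolated peaks (2.52% of all) and 9 of the 46 that overlapped H3K4me3. The share was 3.06% on X (1.62% to 5.71%) and 0.325% on the autosomes (0.236% to 0.448%), a difference of 2.74 points (1.29 to 5.39). Grouped unmarked peaks on X also had a high share, 2.28% (1.11% to 4.63%) against 0.192% on the autosomes. H3K4me3 peaks of X lacked both H3K27ac and H3K4me1 in 19.6% of cases (119 of 606), compared with 7.73% on the autosomes. The part of this in the overlap was not tested.

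SOX peaks were also rare at isolated peaks, as they were at all H3K9me3 peaks without H3K27ac or H3K4me1. Among the 1052 equally spaced peaks with these marks, which the choice left out, SOX9 overlapped 4.94% and SOX6 4.37%. Of the isolated peaks, SOX9 overlapped 18, or 0.154% (0.0977% to 0.244%). All H3K9me3 peaks gave 0.95% and all those without the marks 0.246%. SOX6 overlapped 31, or 0.266% (0.187% to 0.377%), where all H3K9me3 peaks gave 1.09% and all those without the marks 0.321%. SOX9 or SOX6 overlapped 49 (0.420%), where all H3K9me3 peaks gave 1.63% and all those without the marks 0.552%. No isolated peak met both factors, and 0 of 11662 allows a share of up to 0.0257%. Both factors met 7 of 34188 grouped unmarked peaks (0.0205%), which lies within that limit, and 210 of all 52431 H3K9me3 peaks.

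Compared with grouped unmarked peaks, the share with SOX9 was lower at isolated peaks, and so was that with SOX6, though its interval held 0. The intervals of both differences overlapped, and the factors were not tested against each other. For SOX9 the grouped share was 0.278% and the difference was -0.124 percentage points (Newcombe interval -0.207 to -0.0208). For SOX6 it was 0.339% and the difference -0.0735 points (-0.177 to 0.0512). Isolated peaks were narrower, and a wider interval has more room for an overlap. Among peaks up to 691 bp wide, the median of all unmarked peaks, SOX9 was present at 0.105% of isolated (0.0508% to 0.216%) and 0.202% of grouped peaks (0.144% to 0.284%). Above that width the shares were 0.220% (0.123% to 0.394%) and 0.347% (0.271% to 0.444%). The order was the same in both classes of width, while the intervals overlapped. Against 1 peak per group, the highest in score, the difference was -0.256 points (-0.423 to -0.111) for SOX9 and -0.236 points (-0.424 to -0.0666) for SOX6, but those peaks had a median width of 890 bp against 651 bp for isolated peaks. The share with SOX6 was higher among wide grouped peaks, at 0.459%, than among narrow ones, at 0.208%, and the part of width in these differences was not tested.

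**Figure D3:**
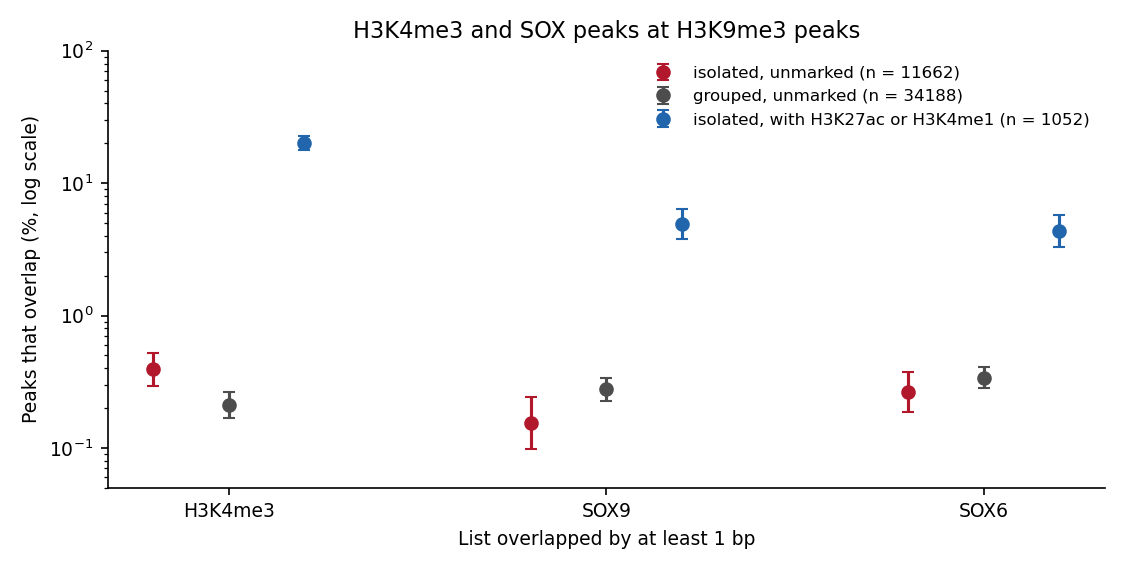
Percentage of H3K9me3 peaks (log scale) that share at least 1 bp with H3K4me3, SOX9 or SOX6, for isolated peaks, grouped peaks without H3K27ac or H3K4me1, and isolated peaks that carry one of these marks. Points are shares and bars Wilson 95% intervals, and the 2 unmarked classes stay under 0.6% while the marked class reaches 20.2%.

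The SOX9 peaks involved were all in the lower part of their list by score, and the SOX6 peaks mostly so. The 18 SOX9 peaks had scores of 50.01 to 65.8, all below the SOX9 list's median of 90.3, and a median width of 273.5 bp against 538 bp over the list. The 31 SOX6 peaks had a median score of 60.4 against 104 over their list, and 6 scored above that median, the highest at 1236. None of these 49 isolated peaks overlapped H3K4me3. Since only 0.394% of all isolated peaks did, a count of 0 among 49 says little. The isolated peaks with SOX9 had their nearest H3K27ac peak at a median of 44.4 kb and those with SOX6 at 35.0 kb.

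By H3K9me3 score the first isolated peak with a SOX peak was chr6:3656869-3657661, with a score of 694. The SOX6 peak on it was 452 bp wide with a score of 408, and H3K4me1 stood at 5.40 kb. The second, chr3:111253911-111255555 with a score of 593, held a SOX6 peak that scored 61.2. The third, chr16:76008647-76010230 with a score of 479.6, held a SOX9 peak that scored 64.5 and was 292 kb from H3K27ac. The last of these lay far from active chromatin, unlike the peak on chromosome 3, where H3K27ac stood at 2.54 kb.

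Density differed between chromosomes and was set against the input. Since chromosome lengths were not used here, the last peak end over the 6 lists stood in for the length. Isolated peaks per Mb ran from 2.64 on chromosome 15 to 6.03 on chromosome 16, a 2.29-fold range, with a median of 3.99 over the 20 autosomes. The densest after chromosome 16 were chromosome 10 with 5.94, chromosome 7 with 5.83, chromosome 9 with 5.66 and chromosome 12 with 5.66. Grouped unmarked peaks varied far more, from 4.81 per Mb on chromosome 15 to 66.3 on chromosome 12. Chromosome X had 1.90 isolated peaks per Mb (Poisson interval 1.69 to 2.13), below every autosome. Its input per kb was also below that of every autosome.

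Exact-match input reads, that is reads without a mismatch in the input of the methylation marks, ran from 3.48 per kb on chromosome 15 to 10.3 per kb on chromosome 16, a 2.96-fold range. Chromosomes 9 and 7, with 10.2 and 9.51 per kb, came next. Across the 20 autosomes the density of isolated peaks and that of input reads had Pearson's r of 0.73 and Spearman's rho of 0.75, given as a description, since both are divided by the same length and come from single libraries. Without chromosomes 9 and 16, which were farthest from the median input, r was 0.60 and rho 0.67, and without chromosome 7 as well r was 0.43 and rho 0.61. The linear relation thus rested in part on the 3 autosomes with most input. Chromosomes 10 and 12 were as dense in isolated peaks at 6.47 and 4.85 reads per kb.

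Division by the input did not even out the autosomes. Isolated peaks per 100000 exact-match reads had a median of 74.1 over the autosomes and ran from 50.1 on chromosome 11 (Poisson interval 45.1 to 55.4) to 117 on chromosome 12 (104 to 130.4). Chromosome 20 gave 108 (94.0 to 123). The autosomes with most input came out low, with 55.3 on chromosome 9, 58.5 on chromosome 16 and 61.3 on chromosome 7. Chromosome 11 was unusual in its input, where 44.7% of aligned reads had no mismatch, against a median of 85.8% over the autosomes. With 4.04 isolated peaks per Mb it was close to the median density, at 8.08 exact-match reads per kb. Chromosome X, at 2.96 reads per kb, gave 64.3 isolated peaks per 100000 reads (57.2 to 72.1), within the range of the autosomes.

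**Figure D4:**
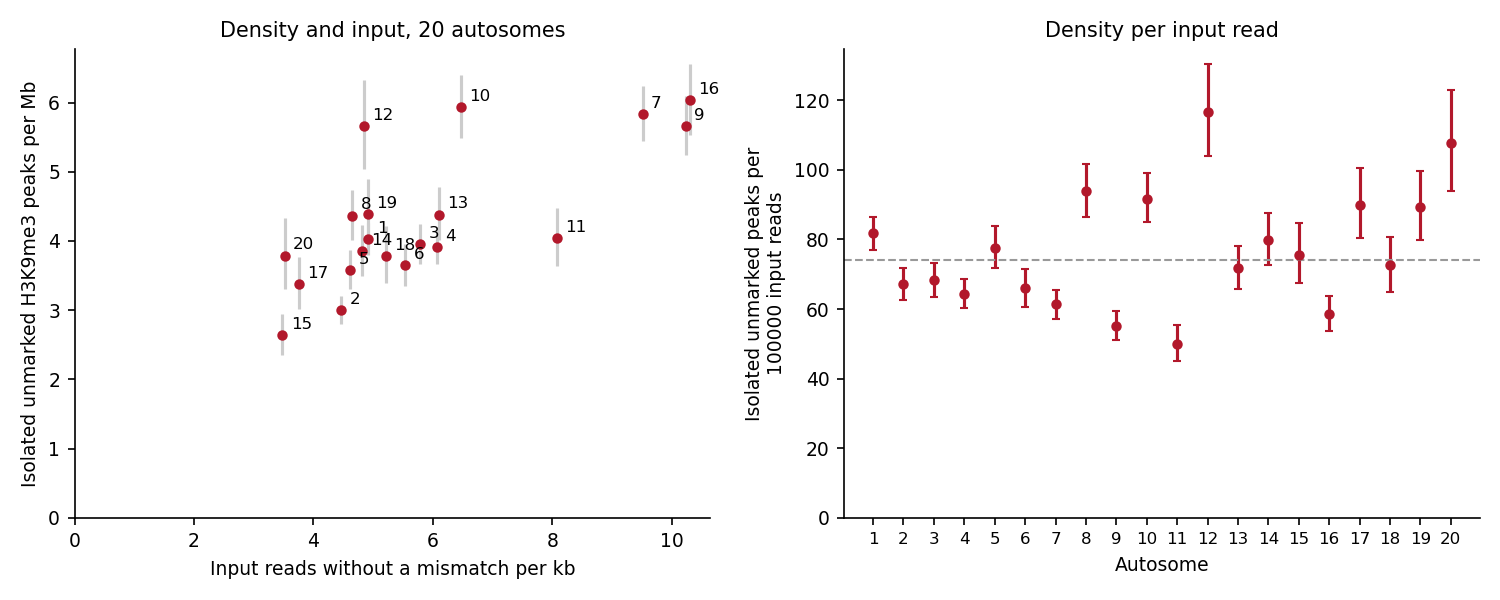
Isolated H3K9me3 peaks per Mb against exact-match input reads per kb, with the autosome number beside each point (left), and isolated peaks per 100000 such reads by autosome (right, dashed line at the median of 74.1). Bars are exact Poisson 95% intervals, and chromosomes 7, 9 and 16 are high on the left and low on the right.

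Chromosome 12 combined a high density of isolated peaks with the lowest fraction of its H3K9me3 peaks. Its 308 isolated peaks were 7.42% of its 4153 H3K9me3 peaks, compared with a median of 25.5% over the autosomes and 34.1% on chromosome 8. Over the autosomes this fraction fell as H3K9me3 peaks became denser (rho = -0.87). The fraction and the density share the count of H3K9me3 peaks, and the rule itself depends on spacing. The value is therefore a description, and the part of the spacing rule in it was not tested.

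Both isolated and grouped peaks were denser per Mb on chromosomes with more active marks. Per Mb, the density of isolated peaks had Pearson's r of 0.94 and Spearman's rho of 0.86 with that of H3K27ac over the 20 autosomes. With H3K4me1 the values for isolated peaks were 0.93 and 0.91, and with H3K4me3 0.73 and 0.63. They were 0.89 and 0.81 with SOX9 and 0.87 and 0.72 with SOX6, so the relation was common to all 5 lists. Per 100000 exact-match reads the values with H3K27ac were 0.93 and 0.92, where both sides again share their denominator. Grouped unmarked peaks gave r of 0.61 and rho of 0.81 per Mb, and 0.60 and 0.30 per 100000 reads. These are descriptions over 20 chromosomes of single libraries, and the difference between the classes was not tested.

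The same was seen within chromosomes. The autosomes were divided into 2759 bins of 1 Mb, ranked by their number of H3K27ac peaks. The lowest quintile, with 0 to 2 H3K27ac peaks, held 1.53 isolated peaks per bin (Poisson interval 1.42 to 1.63), and the middle quintile, with 7 to 16, held 4.70 (4.52 to 4.89). The highest quintile, with 32 to 166, held 5.90 (5.70 to 6.10). An isolated peak was missing from 49.3% of bins in the lowest quintile and from 0% in the highest. The rank correlation over bins was 0.56 and was above 0 on each of the 20 autosomes, from 0.14 to 0.77. With the other lists it was similar, at 0.60 for H3K4me1, 0.53 for H3K4me3, 0.55 for SOX9 and 0.55 for SOX6.

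Part of the lowest quintile had no peak of any list. With those 153 bins left out, the quintiles gave 2.16 and 5.86 isolated peaks per bin at the ends, and the rank correlation was 0.49. An isolated peak was then missing from 29.9% of bins in the lowest quintile. Read coverage by bin was not used here, and its part in the pattern was not tested. Grouped unmarked peaks rose as well, from 5.26 to 19.5 per bin, and isolated peaks made up 22.5% of unmarked H3K9me3 peaks in the lowest quintile, 28.2% in the middle and 23.2% in the highest. In 560 bins of 5 Mb, isolated peaks rose 4.13-fold from the lowest to the highest quintile and grouped peaks 9.17-fold, and the isolated fraction of unmarked peaks went from 35.4% to 19.8%. Both classes rose with H3K27ac, but their relative rise depended on the size of the bins.

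**Figure D5:**
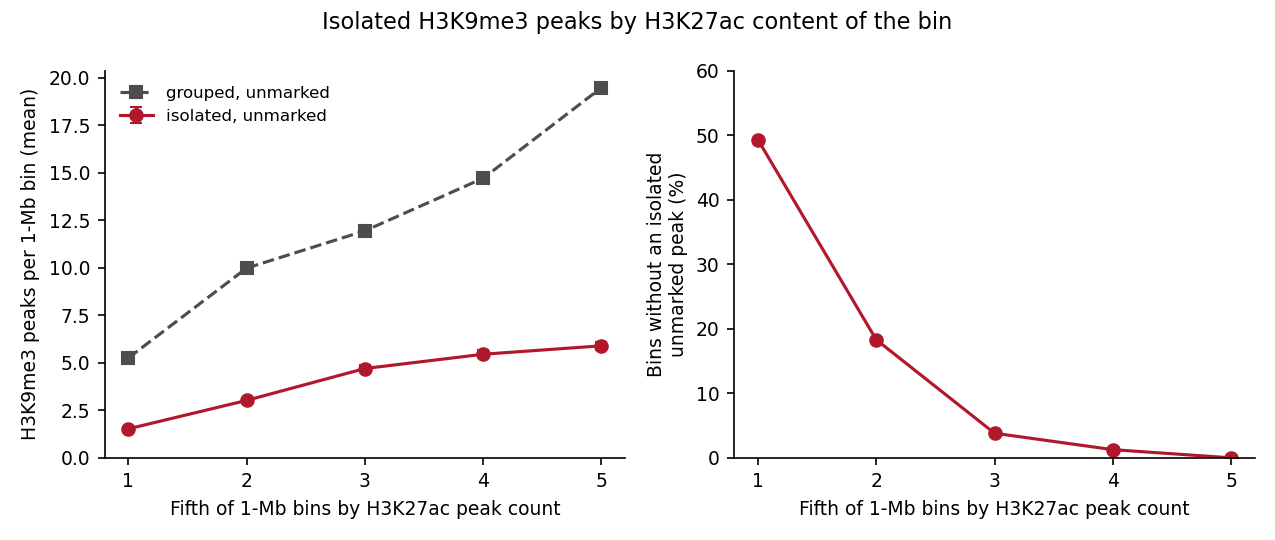
Mean number of H3K9me3 peaks per 1-Mb bin (left) and percentage of bins without an isolated peak (right), by quintile of the autosomal bins ranked by H3K27ac peak count. Bars, smaller than most symbols, are Poisson 95% intervals for isolated peaks. These rise from 1.53 to 5.90 per bin, while bins without one fall from 49.3% to 0%. Bins with no peak of any list are included, and without them the lowest quintile gives 29.9%.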

How the data were processed

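Chromatin immunoprecipitation libraries of RCS cells were deposited as 1 peak list per antibody, each with the authors' deposited score per peak. Peak names carry the name of MACS, and the submitters' processing notes name CASAVA 1.8 and rn5. For the peak caller, its version, settings and input, and the scale of the score, the sources used here give nothing. Inputs were deposited as raw read counts per chromosome, per the file headers, split by mismatches.

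Intervals were read as counted from 0. Distances run between edges. Isolation needed more than 12.5 kb to the next H3K9me3 peak, and overlap 1 bp. Shares carry Wilson, differences Newcombe, and counts exact Poisson 95% intervals, and medians intervals from order statistics. The upper limit for a count of 0 is 3 counts. Calculations used Python 3.11.15, numpy 2.4.6, pandas 2.3.3 and scipy 1.17.1, and the interval code was tested on simulated data. Regions are named by rule: the 5 highest-scoring and 5 widest isolated peaks, the 5 highest-scoring with H3K4me3, the 3 highest-scoring with a SOX peak, the 3 with the longest spacing and the 3 farthest from H3K27ac and H3K4me1, with ties by coordinate. The rule for isolated peaks was chosen with earlier results of these data known. The comparisons by bin, with the other lists over chromosomes, of X with the autosomes and by 1 peak per group were added after the data were seen. A gene annotation and a genome of rn5 were not used here.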

Additional observations from a re-analysis of the deposited data

How the results depend on the processing

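Of 105 alternative values, 71 stayed within the 95% interval of the reported value, within 1.5 times its count or, for the H3K4me3 difference, clear of 0, 30 moved and 4 lost a call, and none changed sign. The cause was not tested except where the alternative's construction gives it. The 4 lost calls all concern the H3K4me3 difference between isolated and grouped unmarked peaks: 0.0793 points without peaks within 1000 bp of an active mark, 0.0795 above the median H3K9me3 score, 0.0660 with 0.5 overlap and 0.0751 with 1 peak per group, an alternative added after seeing the data. An isolation distance of 5000 bp gave a median width of 657 bp and score of 75.4. At 25000 bp the score was 73.5, the SOX6 share 0.165%, and the distances to H3K27ac and H3K4me1 33806 and 18381 bp. With marked peaks kept, H3K4me3, SOX9 and SOX6 shares were 2.03%, 0.551% and 0.606%, and distances 26914 and 14698 bp. Removal within 1000 bp of a mark gave 0.257% with H3K4me3 and distances of 35727 and 20148 bp. H3K9me3 peaks above the median score left 7531 isolated peaks with a width of 907 bp, a score of 133, a SOX9 share of 0.319% and distances of 28060 and 14914 bp. With the other lists above their median scores, H3K4me3, SOX9 and SOX6 shares were 0.182%, 0.0248% and 0.0660%, and distances 50928 and 34677 bp. Overlap of 0.5 gave 0.262% with H3K4me3, and the centre base 0.269%, 0.0758% and 0.135% with H3K4me3, SOX9 and SOX6. Without chromosome X the distance to H3K4me1 was 16572 bp. The rank correlation of density with input lay between 0.626 and 0.795 under these alternatives, and at 0.613 without chromosomes 7, 9 and 16. No paired analysis was possible because each antibody has 1 library and the labels carry no replicate numbers.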

Other observations

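The isolated peaks farthest from H3K27ac and H3K4me1 all lay in 1 stretch of chromosome X. They ran from 99377459 to 99378154, from 99146631 to 99147041 and from 98679956 to 98680509 (rn5), at 3791, 3560 and 3093 kb from the nearest H3K27ac peak and at 4397, 4628 and 5094 kb from the nearest H3K4me1 peak. Their scores were 58.8, 70.8 and 88.1, around the median of 74.3 over all isolated peaks. H3K4me3 peaks lay nearer, at 144, 375 and 550 kb.

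H3K9me3 peaks on X, isolated or grouped, were farther from enhancer marks than those on the autosomes. For isolated peaks on X the median distance was 197 kb to H3K4me1 and 82.6 kb to H3K27ac. H3K4me1, the nearer mark on the autosomes at 16.6 kb against 31.1 kb, was thus the farther one on X. Grouped unmarked peaks on X had the same order, with 116 kb to H3K4me1 and 45.2 kb to H3K27ac. Their autosomal medians were 18.8 and 36.6 kb, so for H3K27ac they differed less than isolated peaks did. The median distance to SOX9 was 418 kb on X and 74.2 kb on the autosomes for isolated peaks, and 316 and 89.6 kb for grouped ones. The median score of isolated peaks, 71.1 on X and 74.6 on the autosomes, differed little.

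The 1-Mb bin with most isolated peaks, 18, was the one that starts at 24 Mb on chromosome 9. It held 3 H3K27ac peaks and 19 grouped unmarked H3K9me3 peaks, against a median of 4 isolated peaks per bin. Chromosome 9 had 10.2 exact-match input reads per kb, against a median of 5.07 over the autosomes. Read coverage of the bin was not used here.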
